A study of Mus musculus with 24 samples.

Results

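Expression of 6 regulators of the step from G1 into S phase of the cell cycle was examined: the transcription factor E2F1, the cyclins CCNE1 and CCNE2, the phosphatase CDC25A, and the MYB family members MYBL2 and MYB. They were listed by name and found by the gene symbol of the array's probe sets. All 6 were measured, each by 1 probe set, among 14884 genes tested. The material was RNA from plasmacytomas grown from MM.1S, an established human multiple myeloma line, mixed with Matrigel and placed under the skin of CB17-SCID mice, which lack functional T and B cells. All 8 groups shared this tumour and host, and each held 3 arrays. Control tumours received the PBS vehicle. The 3 single-drug groups received filanesib at 10 mg/kg, dexamethasone at 0.5 mg/kg or pomalidomide at 8 mg/kg for 2 days. The remaining groups were the 3 pairs of these drugs and the triple combination, Filanesib-Pomalidomide-Dexamethasone, at those same doses for 2 days. A single cell line was the source of every tumour, and the labels do not say whether 2 arrays could share an animal. The p-values therefore describe only the spread among these samples, which may be technical.

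In resting or early G1 cells the RB family of pocket proteins holds E2F factors inactive. Cyclin-dependent kinases phosphorylate RB, E2F1 and its DP partner are released, and they switch on genes of DNA replication as well as E2F1 itself, both cyclin E genes, CDC25A and MYBL2. Cyclin E activates the kinase CDK2, and CDC25A removes inhibitory phosphates from CDK2. MYBL2, also called B-MYB, binds the MuvB complex in S phase and helps to turn on genes of mitosis, whereas MYB is a blood-lineage transcription factor that maintains proliferation of immature and lymphoid cells. Of the drugs, filanesib inhibits KIF11, the kinesin that separates the spindle poles. Pomalidomide acts through cereblon, which then marks the lymphoid factors IKZF1 and IKZF3 for destruction. Dexamethasone activates the glucocorticoid receptor. The series was built around the question of what filanesib adds to pomalidomide plus dexamethasone.

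Levels are the authors' RMA values on the log2 scale, so a difference of 1 is a 2-fold change, and levels of different probe sets were not set against each other. The 7 measured plasma cell markers averaged 9.09 to 9.42 in every array, with SDC1 at 10.07, MZB1 at 11.06 and XBP1 at 10.72 over the 24 arrays, whereas CD27 was low at 4.15. The 2 measured B cell markers averaged 3.53 to 3.93. The 3 arrays of Pomalidomide alone stood apart from their own group mean more than others: the residual SD over all genes of replicates 1, 2 and 3 was 0.232, 0.193 and 0.288, whereas the other 21 arrays lay between 0.127 and 0.180. The average effects of pomalidomide, and that of filanesib on CDC25A, are given with and without the background that holds them, the latter an alternative added after the data were seen. Comparisons with the Pomalidomide group itself rest on these arrays, and for them arrays were omitted singly or weighted by their scatter.

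Pomalidomide lowered most of these regulators. In the average effect of the drug, which averages its 4 differences with and without the drug beside each combination of the others and sets 12 arrays against 12, 5 of the 6 genes fell at a limma adjusted p under 0.05. Over all genes tested, 2.65% passed in that direction. The falls were 1.75-fold for MYB, 1.56-fold for MYBL2, 1.51-fold for CCNE1, 1.44-fold for E2F1 and 1.37-fold for CDC25A. CCNE2 did not pass the threshold. In its average effect filanesib raised 1 of the 6 genes, CDC25A, by 1.28-fold, where 1.25% of all genes passed upward. Beside no other drug its log2 difference for CDC25A was -0.06, so the rise came from backgrounds that held another drug. Dexamethasone changed none of them in limma's average effect, in which 2 of the 14884 genes passed, or 0.0134%, and 1143 had an unadjusted p under 0.05. In bulk tumour RNA, fewer cells in a phase of the cycle and less RNA per cell cannot be told apart.

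**Figure D1:**
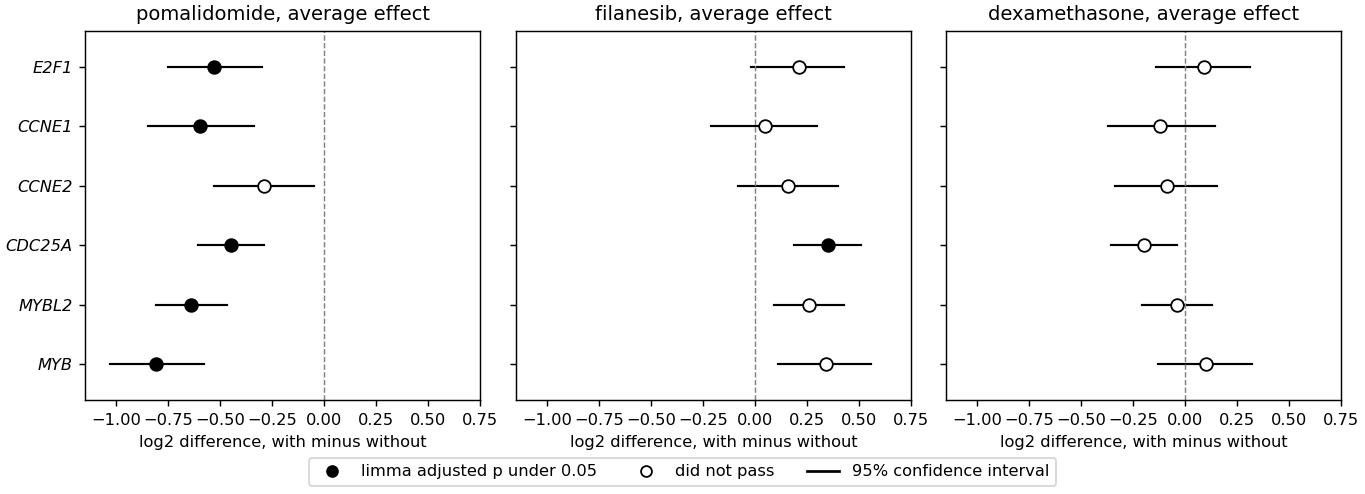
Average effect of each drug on the 6 regulators, as the log2 difference with minus without the drug over 4 backgrounds, with the 95% confidence interval. Filled points passed a limma adjusted p of 0.05. With pomalidomide all 6 points lie below 0 and 5 are filled, with filanesib CDC25A is filled at 0.35, and with dexamethasone none is.

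E2F1 (probe set 16918445), the activator at the head of the set, read 7.59, 6.95 and 7.44 in the 3 Control arrays and 7.36, 7.17 and 7.06 under Dexamethasone. The Filanesib arrays read 7.26, 7.24 and 7.51, and those of Filanesib-Dexamethasone 7.01, 7.56 and 7.48. The 4 groups without pomalidomide thus overlapped throughout, between 6.95 and 7.59. Pomalidomide alone gave 5.66, 6.57 and 6.62, and Pomalidomide-Dexamethasone gave 7.01, 6.76 and 7.04. Filanesib-Pomalidomide gave 7.08, 7.43 and 6.63, and the triple combination 6.87, 6.87 and 6.79. With pomalidomide present 8 of 12 arrays lay below the lowest array without it, and the lowest of all was replicate 1 of Pomalidomide alone. The order of group means ran from Filanesib-Dexamethasone at 7.35 ± 0.30 (SD, n = 3) to Pomalidomide at 6.28 ± 0.54. Only the last step in that order, from the triple combination to Pomalidomide, was larger than the larger SD of the neighbouring groups, by 0.56 against 0.54. Such steps, here and for the other genes, are descriptive, because the same means set the order. The average effect of pomalidomide was -0.53 (SE 0.11, limma adjusted p = 0.00519). Without the background that holds the Pomalidomide arrays it was -0.35 and no longer passed, with an adjusted p of 0.0636.

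Of the cyclin E genes, whose products activate CDK2, CCNE1 passed the pomalidomide test and CCNE2 did not. CCNE1 (probe set 16860418) read 7.43, 7.19 and 7.35 in Control and 7.15, 6.78 and 6.71 under Dexamethasone. Filanesib gave 7.31, 6.95 and 7.37, and Filanesib-Dexamethasone gave 7.11, 6.99 and 7.27. Among these groups Control was highest and Dexamethasone lowest, with no overlap between those 2, where 6.05% of all genes lay wholly lower under Dexamethasone. Pomalidomide gave 6.96, 6.91 and 5.57, and Pomalidomide-Dexamethasone 6.70, 6.59 and 6.42. Filanesib-Pomalidomide gave 6.81, 6.46 and 6.42, and the triple combination 6.21, 6.96 and 6.44. The array far below the rest was replicate 3 of Pomalidomide alone, while 9 of the 12 arrays without the drug lay above the highest with it. The 4 groups with pomalidomide had means between 6.48 ± 0.79 and 6.57 ± 0.14 and did not differ beyond their spread. Above them in the order stood Dexamethasone at 6.88 ± 0.24, higher than the next group by 0.31, which was more than the larger SD. Filanesib-Dexamethasone stood above Dexamethasone by 0.24, barely more than the larger SD of 0.24. The average effect of pomalidomide on CCNE1 was -0.60 (SE 0.12, limma adjusted p = 0.00522), and -0.52 with an adjusted p of 0.0032 without the background of Pomalidomide alone.

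CCNE2 (probe set 17079293) scattered within groups about as widely as CCNE1, E2F1 and MYB. The residual SD of CCNE2 was 0.32, against 0.35 for CCNE1, 0.30 for E2F1 and MYB, 0.22 for MYBL2 and 0.20 for CDC25A. For CCNE2 the Control arrays read 5.21, 4.80 and 5.41, and Dexamethasone arrays 5.16, 5.10 and 5.16. Filanesib gave 5.19, 5.14 and 5.12, and Filanesib-Dexamethasone 5.40, 4.67 and 5.10. These means lay between 5.05 and 5.15, closer together than the SD of 0.31 in Control. Pomalidomide gave 5.01, 5.13 and 4.20, and Pomalidomide-Dexamethasone 4.95, 4.40 and 4.24. Filanesib-Pomalidomide gave 5.01, 5.16 and 4.89, and the triple combination 4.67, 4.83 and 5.48. Arrays with pomalidomide thus held both the lowest value, 4.20, and the highest, 5.48, and no neighbours in the order of group means differed by more than the larger SD. The average effect of pomalidomide was -0.29, with a 95% confidence interval from -0.53 to -0.05 and a limma adjusted p of 0.176. Without the background of Pomalidomide alone it was -0.27, with an adjusted p of 0.246. The pomalidomide difference of CCNE1 minus that of CCNE2 within arrays was -0.31, negative in 3 of 4 backgrounds, with p = 0.0469 in a two-sided exact permutation test of the drug label within backgrounds. Over the 9 tests of this kind, 3 gene pairs by 3 drugs, the adjusted p was 0.422, so that the cyclin E genes were not shown to respond differently.

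CDC25A (probe set 16953279), the phosphatase that activates CDK2, was the only one of the 6 to pass for 2 drugs, falling with pomalidomide and rising with filanesib. It read 6.60, 6.60 and 6.45 in Control and 6.39, 5.92 and 5.75 under Dexamethasone. Filanesib gave 6.55, 6.22 and 6.69, and Filanesib-Dexamethasone 6.41, 6.55 and 6.63. Dexamethasone alone was thus lower than Control in every array, where 6.05% of all genes were. The 2 groups with filanesib and without pomalidomide overlapped Control. Pomalidomide gave 6.09, 6.0 and 5.45, and Pomalidomide-Dexamethasone 5.65, 5.58 and 5.49. Filanesib-Pomalidomide gave 6.29, 6.17 and 6.15, and the triple combination 6.16, 6.19 and 6.16. The lowest group was Pomalidomide-Dexamethasone at 5.57 ± 0.08, and both groups that combined filanesib with pomalidomide lay above every array of Pomalidomide and of Pomalidomide-Dexamethasone. In the order of means, the step from Filanesib at 6.49 to Filanesib-Pomalidomide at 6.21 was the one larger than the larger SD, by 0.28 against 0.24. The average effect of pomalidomide was -0.45 (SE 0.08, limma adjusted p = 0.001), and that of filanesib was 0.35 (SE 0.08, limma adjusted p = 0.0203). Without the background of Pomalidomide alone they were -0.36 and 0.35, and both passed, with adjusted p of 0.00912 and 0.026. The rise with filanesib did not pass without replicate 3 of Filanesib, at 0.33 and an adjusted p of 0.0507, nor with every probe set of the array tested, at an adjusted p of 0.0787.

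**Figure D2:**
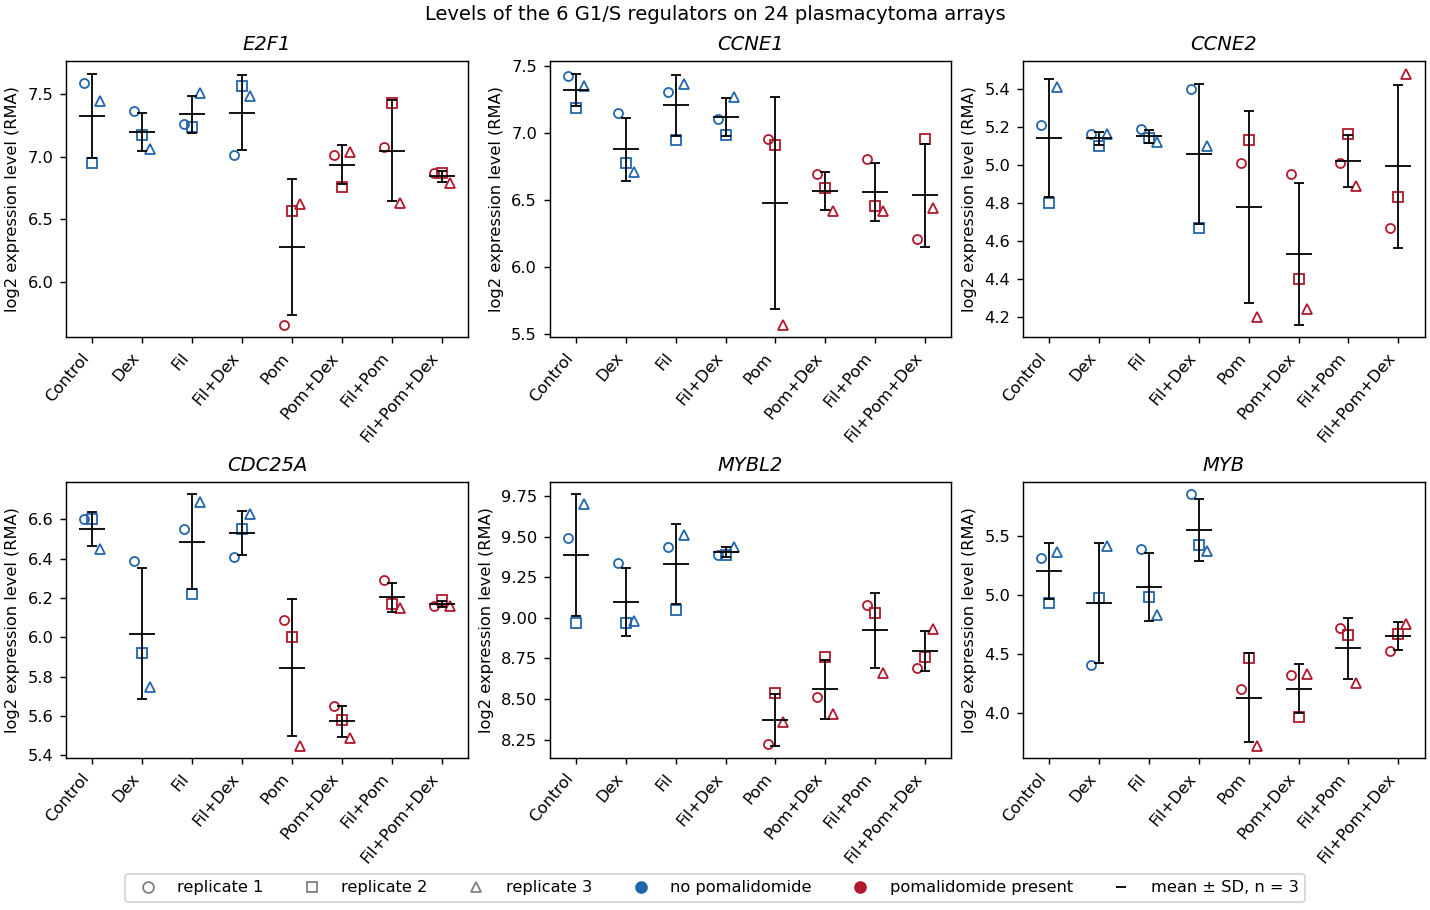
Levels of the 6 regulators on the 24 arrays, as log2 expression per array (symbols mark the replicate number, blue without and red with pomalidomide) and mean ± SD of 3 arrays in black; the vertical axes differ between genes. The red groups of MYBL2 and MYB sit below the blue ones with little overlap, single Pomalidomide arrays lie far down for E2F1 at 5.66 and CCNE1 at 5.57, and CDC25A is lowest under Pomalidomide-Dexamethasone.

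MYBL2 (probe set 16913957), the E2F target that acts with the MuvB complex, gave the smallest p of the set for pomalidomide. Control arrays read 9.49, 8.97 and 9.70, and Dexamethasone arrays 9.34, 8.97 and 8.98. Filanesib gave 9.44, 9.05 and 9.51, and Filanesib-Dexamethasone 9.39, 9.39 and 9.44. The lowest of these 12 arrays was 8.97. Pomalidomide gave 8.22, 8.54 and 8.36, and Pomalidomide-Dexamethasone 8.51, 8.76 and 8.41. Filanesib-Pomalidomide gave 9.08, 9.03 and 8.66, and the triple combination 8.69, 8.76 and 8.93. Of the 12 arrays with pomalidomide 10 lay below 8.97, the exceptions being replicates 1 and 2 of Filanesib-Pomalidomide. Group means fell from 8.93 ± 0.23 in Filanesib-Pomalidomide and 8.79 ± 0.13 in the triple combination to 8.56 ± 0.18 in Pomalidomide-Dexamethasone and 8.37 ± 0.16 in Pomalidomide, and the last 2 steps were each larger than the larger SD. The average effect of pomalidomide was -0.64 (SE 0.08, limma adjusted p = 5.01e-05), and -0.52 with an adjusted p of 0.00285 without the background of Pomalidomide alone.

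MYB (probe set 17012804) had the largest pomalidomide average effect of the 6. Control arrays read 5.31, 4.93 and 5.36, and Dexamethasone arrays 4.40, 4.97 and 5.41. Filanesib gave 5.39, 4.98 and 4.83, and Filanesib-Dexamethasone 5.85, 5.42 and 5.37. The last of these was the highest group, at 5.55 ± 0.26, and lay above Control by 0.35, more than the larger SD of 0.26. In limma that difference did not pass, with an adjusted p of 0.911. Pomalidomide gave 4.20, 4.46 and 3.72, and Pomalidomide-Dexamethasone 4.32, 3.96 and 4.33. Filanesib-Pomalidomide gave 4.72, 4.66 and 4.25, and the triple combination 4.52, 4.67 and 4.75. All 12 arrays with pomalidomide lay below 11 of the 12 without it, the exception being replicate 1 of Dexamethasone at 4.40. The average effect of pomalidomide was -0.81 (SE 0.11, limma adjusted p = 7.81e-05), and -0.72 with an adjusted p of 0.00132 without the background of Pomalidomide alone. In the order of means, Filanesib-Pomalidomide at 4.54 ± 0.26 stood above Pomalidomide-Dexamethasone at 4.20 ± 0.21 by 0.34, again more than the larger SD. The pomalidomide difference of MYB minus that of MYBL2 was -0.16, with p = 0.236 in the two-sided exact permutation test, and that of E2F1 minus CDC25A was -0.08, with p = 0.636. Neither pair was shown to change unequally with any of the 3 drugs, the smallest adjusted p being 0.444.

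Markers of the tumour and of other cell types were read on the same arrays. Of the 7 plasma cell markers CD38 rose by 0.18 and IRF4, a lymphoid transcription factor, fell by 0.54 with pomalidomide, and 5 did not pass. The mean of the 4 measured macrophage markers was 4.91 to 5.24 in arrays with pomalidomide and 4.74 to 5.05 without it. Within that list CD68 rose by 0.99 (SE 0.09, limma adjusted p = 4.31e-07), while CD14 at 3.07 and CD163 at 2.95 were low and differed by -0.01 and 0.04. The T cell markers, 2 of 4 measured, averaged 4.17 to 4.56 in all arrays. The stroma markers, 2 of 6 measured, averaged 2.23 to 2.51, and the endothelial ones, 3 of 5, 3.22 to 3.88. A human array registers mouse host cells only through cross-hybridisation, and the part of these markers in the falls was not tested. The 4 proliferation markers MKI67, TOP2A, CDK1 and CCNB1 had a median pomalidomide difference of -0.06. Of these 0 passed in limma and 1 had an unadjusted p under 0.05.

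Against Control, calls among the 6 genes came from 2 treatments, Pomalidomide and Pomalidomide-Dexamethasone. These 7 comparisons share the Control arrays, so that an unusual Control array moves all of them. Under Pomalidomide alone 4 of the 6 genes fell at a limma adjusted p under 0.05, where 1.47% of all genes did so, and 5 of 6 had arrays all below Control, where 9.06% of genes did. MYBL2 fell by 1.01 (SE 0.17, adjusted p = 0.00504), or 2.02-fold. MYB fell by 1.07 (SE 0.22, adjusted p = 0.0151), or 2.11-fold, and E2F1 fell by 1.04 (SE 0.22, adjusted p = 0.0187), or 2.06-fold. CDC25A fell by 0.71 (SE 0.16, adjusted p = 0.0227), or 1.63-fold. CCNE1 at -0.84 and CCNE2 at -0.36 did not pass, with adjusted p of 0.0794 and 0.468. CCNE1 passed without Pomalidomide replicate 1 or 2, at 0.0361 and 0.0215, and with dim genes omitted, at 0.0487. The MYBL2 call held on omission of any single array, with adjusted p of at most 0.0403 when an array of either group was left out. The E2F1 call was lost without Control replicate 1, Control replicate 3 or Pomalidomide replicate 1, at adjusted p of 0.107, 0.0961 and 0.0657. The CDC25A call was lost without any 1 of the Control replicates, at 0.103, 0.0512 and 0.0664, or without Pomalidomide replicate 3, at 0.0977. The MYB call was lost without Control replicates 1 or 3, at 0.0799 and 0.0916, or Pomalidomide replicate 3, at 0.0712. A further quantile normalisation ended the E2F1 call, at 0.0535. Array weights, by which scattered arrays count less, ended those of CDC25A and MYB, at 0.0607 and 0.0727. With Pomalidomide replicates 1 and 3 both left out the 4 differences were -0.55 to -0.84, but a single Pomalidomide array then remains and its spread is taken from the other groups. In a fit to the Pomalidomide and Control arrays alone none of the 4 passed, with adjusted p of 0.208 to 0.331.

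Pomalidomide-Dexamethasone lowered 2 of the 6 genes, where 0.0672% of all genes fell, and the arrays of 4 of 6 lay wholly below Control, where 7.79% of genes did. CDC25A fell by 0.98 (SE 0.16, limma adjusted p = 0.00573), or 1.97-fold. MYBL2 fell by 0.83 (SE 0.17, limma adjusted p = 0.0363), or 1.77-fold. MYB at -1.0, CCNE1 at -0.75, CCNE2 at -0.61 and E2F1 at -0.39 did not pass, with adjusted p between 0.0683 and 0.691. The CDC25A call was lost without replicate 3 of Pomalidomide-Dexamethasone, at 0.0536. The MYBL2 call was lost on omission of 5 arrays in turn, which were Control replicates 1 and 3, replicates 1 and 3 of the treated group and replicate 3 of Filanesib-Dexamethasone, at adjusted p of 0.189, 0.209, 0.209, 0.217 and 0.0553. It was also lost with every probe set tested, at 0.0999, with a replicate block, at 0.0586, and in a fit to the 2 groups alone, at 0.118. MYB and CCNE1, in contrast, passed in that fit, at 0.0251 and 0.0296, and with array weights, at 0.00849 and 0.0296. Without Pomalidomide replicate 3 they passed at 0.0334 and 0.0441, and MYB also passed without Dexamethasone replicate 1 or 3, at 0.0295 and 0.0357.

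The combinations of filanesib with pomalidomide gave negative differences from Control, none of which passed in the fit to all arrays. In Filanesib-Pomalidomide the 6 differences ran from -0.76 for CCNE1 to -0.12 for CCNE2, with a median of -0.40. None passed in limma, where 0.0537% of all genes fell and 1131 had an unadjusted p under 0.05, although 3 of 6 genes had arrays all below Control against 8.18% of genes. CCNE1 did pass with array weights, at an adjusted p of 0.037, and without Pomalidomide replicate 3, at 0.0423. In the triple combination the differences ran from -0.79 for CCNE1 to -0.15 for CCNE2, with a median of -0.52. Again none passed, where 0.181% of genes fell in limma and 1579 had an unadjusted p under 0.05, and 5 of 6 genes, all but CCNE2, had arrays wholly below Control, against 10.1% of genes. Here too CCNE1 passed with array weights, at 0.0192, and without Pomalidomide replicate 3, at 0.0262. MYBL2 passed with array weights, at 0.0276, and without Control replicate 2, at 0.0266. Without pomalidomide no member passed against Control. Filanesib changed 0% of genes in limma, with 587 at an unadjusted p under 0.05, and the members' differences lay between -0.13 and 0.01. Filanesib-Dexamethasone also changed 0% of genes, with 897 at an unadjusted p under 0.05, and members lay between -0.20 for CCNE1 and 0.35 for MYB. Dexamethasone changed 0.00672% of genes, with 581 at an unadjusted p under 0.05. There CDC25A differed by -0.53 (SE 0.16), with an unadjusted p of 0.00243 and a limma adjusted p of 1, and CCNE1 by -0.44 with an adjusted p of 1.

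Adding pomalidomide to a group that already held another drug gave negative differences for all 6 genes in each case, but no member passed in the limma fit to equally weighted arrays. With array weights 3 did, CCNE1 added to Filanesib at an adjusted p of 0.045, and MYBL2 and MYB added to Filanesib-Dexamethasone at 0.0298 and 0.0215. Added to Dexamethasone, pomalidomide lowered 0% of genes past the threshold, with 825 at an unadjusted p under 0.05. The arrays of all 6 members then lay below those of Dexamethasone, where 4.35% of genes did, with a median difference of -0.49. CCNE2, at -0.61 (SE 0.23), had its largest pomalidomide difference here. Added to Filanesib, the median difference was -0.35, and 2 of 6 members, CCNE1 and MYB, did not overlap, against 9.83% of genes. In limma 0.0739% of genes fell there and 1593 had an unadjusted p under 0.05. Added to Filanesib-Dexamethasone, the median was -0.55 and 5 of 6 members did not overlap, against 7.36% of genes. MYB at -0.90 (SE 0.22) came nearest to the threshold, with an adjusted p of 0.157, where 0.00672% of genes fell in limma and 942 had an unadjusted p under 0.05.

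**Figure D3:**
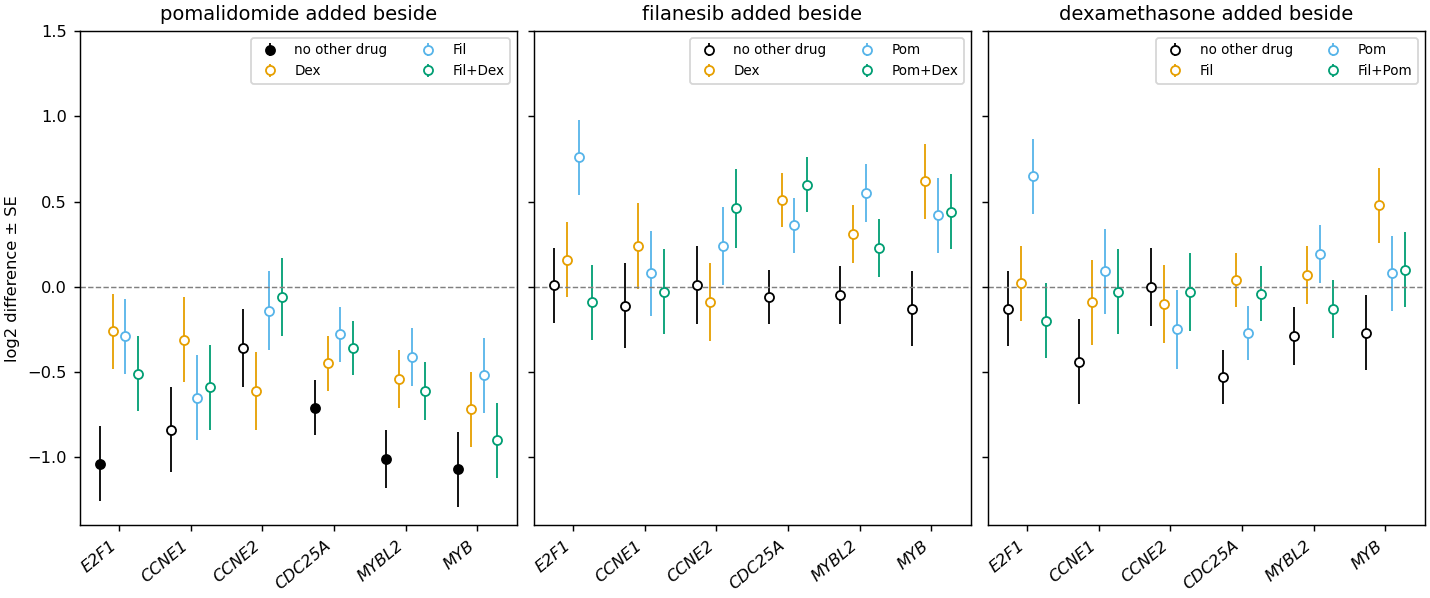
Each drug's log2 difference (± SE) for the 6 regulators when added beside no other drug or to the other drugs, from group means of 3 arrays each; filled points passed a limma adjusted p of 0.05. All 24 pomalidomide points lie below 0, with the 4 filled ones against Control, whereas the filanesib points lie near 0 beside no other drug and mostly above 0 beside dexamethasone or pomalidomide.

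Filanesib added to Pomalidomide-Dexamethasone is the comparison the series was built around. CDC25A differed by 0.60 (SE 0.16), from 5.57 ± 0.08 to 6.17 ± 0.02, and all 3 triple-combination arrays lay above all 3 without filanesib. Its limma adjusted p was 0.182, and 0.107 in a fit to those groups alone. It passed with array weights, at 0.62 and an adjusted p of 0.0162. MYB at 0.44 also did not overlap, CCNE2 at 0.46 and MYBL2 at 0.23 did, and E2F1 at -0.09 and CCNE1 at -0.03 lay near 0. In all 2 of 6 members lay wholly higher, against 7.22% of genes, while 0.00672% of genes rose in limma and 1085 had an unadjusted p under 0.05. Added to Pomalidomide alone, filanesib gave its largest E2F1 difference, 0.76 (SE 0.22, limma adjusted p = 0.123), followed by MYBL2 at 0.55, MYB at 0.42 and CDC25A at 0.36. Here 3 of 6 members, E2F1, CDC25A and MYBL2, lay wholly higher, against 8.28% of genes, and 0.255% of genes rose in limma, with 1980 at an unadjusted p under 0.05. E2F1 passed there without Pomalidomide replicate 2, at 0.905 and an adjusted p of 0.0399. This comparison rests on the 3 scattered Pomalidomide arrays, and without their background the average effect of filanesib on E2F1 was 0.02. Added to Dexamethasone, filanesib gave 0.62 for MYB, 0.51 for CDC25A and 0.31 for MYBL2, none of which passed. CDC25A did pass with array weights, at 0.605 and an adjusted p of 0.0196. CDC25A and MYBL2, 2 of 6, lay wholly higher, against 7.06% of genes. There 0.0202% of genes rose in limma, with 853 at an unadjusted p under 0.05.

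Beside the filanesib rise of CDC25A, all 4 proliferation markers rose with filanesib, with a median of 0.47. TOP2A rose by 0.52 (SE 0.08, limma adjusted p = 0.000775) and CCNB1, the mitotic cyclin, by 0.61 (SE 0.10, limma adjusted p = 0.00171). Their part in the CDC25A difference was not tested. The other members' average filanesib differences were 0.34 for MYB, 0.26 for MYBL2, 0.21 for E2F1, 0.16 for CCNE2 and 0.05 for CCNE1, with adjusted p between 0.149 and 0.919.

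Dexamethasone gave mixed signs. Its average differences were -0.20 for CDC25A, -0.12 for CCNE1, -0.09 for CCNE2, -0.04 for MYBL2, 0.09 for E2F1 and 0.10 for MYB. CDC25A came nearest to the threshold, with an unadjusted p of 0.0174 and a limma adjusted p of 0.584. Added to Pomalidomide, dexamethasone gave 0.65 (SE 0.22) for E2F1, with a limma adjusted p of 0.324, where 0.00672% of genes passed and 1423 had an unadjusted p under 0.05. This too rests on the scattered Pomalidomide arrays, and without their background the average effect of dexamethasone on E2F1 was -0.10. Added to Filanesib it gave 0.48 for MYB and between -0.10 and 0.07 for the others, where again 0.00672% of genes passed in limma and 802 had an unadjusted p under 0.05. Added to Filanesib-Pomalidomide the members lay between -0.20 and 0.10, where 0% of genes passed in limma and 701 had an unadjusted p under 0.05.

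The dependence of 1 drug's effect on another was tested directly as 3 interactions. No member passed in any of them, and 0% of all genes did so in limma, with 996, 646 and 821 genes at an unadjusted p under 0.05 for filanesib by pomalidomide, filanesib by dexamethasone and pomalidomide by dexamethasone. The smallest unadjusted p among members was 0.0163, for CDC25A in the filanesib by dexamethasone interaction, where the effect of filanesib was larger by 0.40 (SE 0.16, limma adjusted p = 1) when dexamethasone was present. For MYBL2 the filanesib by pomalidomide interaction was 0.26, with a 95% confidence interval from -0.08 to 0.61.

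The wider G1/S network was read from a list of 51 genes, of which 38 were measured. With pomalidomide 8 of the 38 fell and none rose in the average effect, where 2.65% of all genes fell. The median difference was -0.13, against -0.01 over all genes tested. The partner of E2F1 in DNA binding, TFDP1, fell by 0.34 (SE 0.07, limma adjusted p = 0.00266), and the kinase that cyclin E activates, CDK2, fell by 0.30 (SE 0.08, adjusted p = 0.0227). DTL, a substrate adaptor that directs replication factors to degradation in S phase, fell by 0.49 (SE 0.08, adjusted p = 0.000583). Of the other E2F genes, the atypical repressor E2F8 fell by 0.40 and the activator E2F2 by 0.39, with adjusted p of 0.00222 and 0.023. E2F3 at -0.19 and E2F7 at -0.04 did not pass, and E2F4, E2F5 and E2F6 were not named by the probe table. The pocket protein gene RB1 differed by 0.02 (adjusted p = 0.956), and MYBL1, the remaining MYB family member, was dim at 3.07 and differed by -0.10. The count of 8 was 2 without the background of Pomalidomide alone and 4 to 10 with single arrays omitted. It was 4 without replicate 1 of the triple combination and 5 without Control replicate 3, Filanesib replicate 1, Filanesib-Dexamethasone replicate 3, Pomalidomide-Dexamethasone replicates 1 or 3, or replicate 3 of the triple combination. The processing moved it too, to 5 with median centring of each array, 6 with a further quantile normalisation or a replicate block, and 11 with array weights.

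With filanesib 8 of the 38 rose and none fell, where 1.25% of all genes rose, and the median difference was 0.13. The phosphatase CDC25B, a relative of CDC25A that acts at entry into mitosis, rose by 0.54 (SE 0.07, limma adjusted p = 0.000106). CCNA2, the S and G2 cyclin, rose by 0.50 (SE 0.08, adjusted p = 0.00171), CKS1B, a CDK-binding subunit, by 0.41 (SE 0.07, adjusted p = 0.00186) and FOXM1, which activates mitotic genes together with MYBL2, by 0.47 (SE 0.08, adjusted p = 0.00315). The counts with single arrays omitted were 7 to 9. By role, 2 of the 5 MuvB core genes, LIN9 at 0.29 and LIN54 at 0.27, rose with filanesib, and both measured phosphatases did, CDC25C by 0.37. Among the 3 pocket proteins RBL1 rose by 0.43, while RB1 and RBL2 both differed by 0.00. Of the 9 cyclins and kinases CCNA2 was the one that rose, and the G1 cyclins CCND1, CCND2 and CCND3 differed by -0.11, 0.17 and -0.13 and did not pass. TFDP1 and CDK2 both differed by 0.10 with filanesib and did not pass. With dexamethasone none of the 38 passed in limma, 4 had an unadjusted p under 0.05 and the median difference was 0.00.

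Textbook E2F targets outside the set also fell with pomalidomide. Of 22 listed genes 16 were measured. With pomalidomide 13 of them fell and none rose, where 2.65% of all genes fell, and the median was -0.36. The replication licensing factor CDC6 fell by 0.51 (SE 0.09, limma adjusted p = 0.00105), the ribonucleotide reductase subunit RRM2 by 0.42 (SE 0.07, adjusted p = 0.00117) and the helicase subunit MCM6 by 0.41 (SE 0.08, adjusted p = 0.00208). Without the background of Pomalidomide alone, 8 of the 16 fell, and with single arrays omitted 12 to 15 did. With filanesib 4 of the 16 rose, namely CCNA2, CDC6, CDK1 and RBL1, where 1.25% of all genes rose, and the median was 0.21. With dexamethasone none passed in limma, 4 had an unadjusted p under 0.05 and the median was 0.06. CCNA2 and RBL1 stood in both lists.

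**Figure D4:**
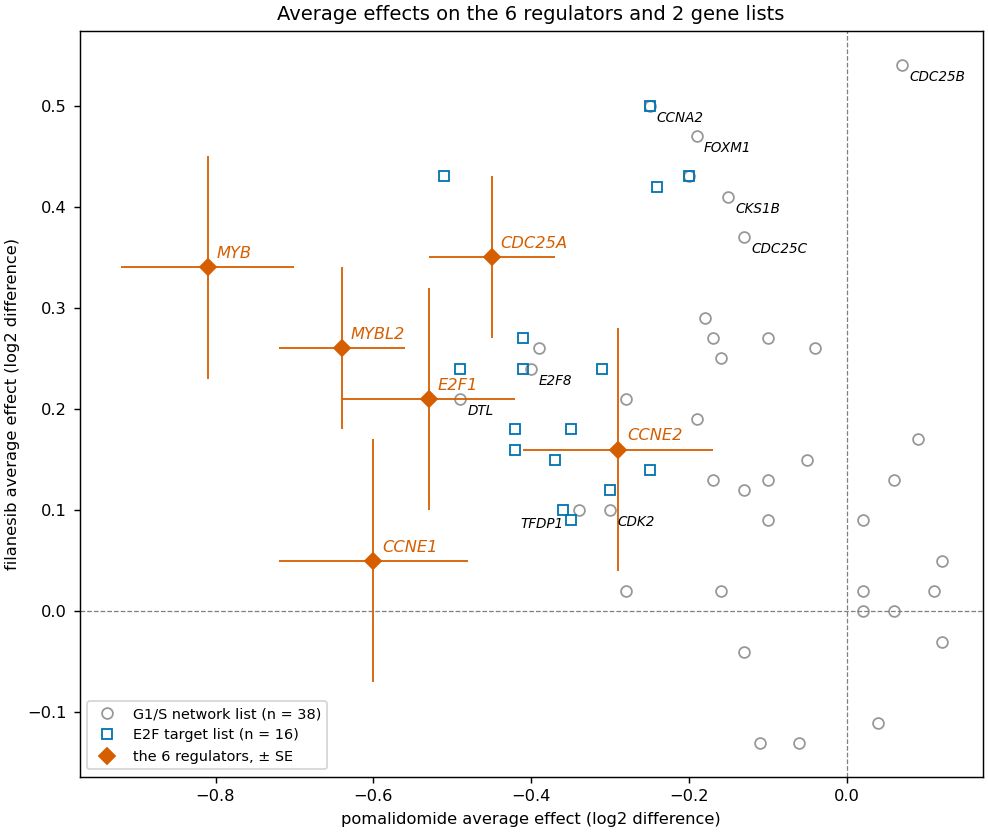
Average log2 difference with pomalidomide (horizontal) and with filanesib (vertical) for the 6 regulators (orange, ± SE), 38 measured genes of the G1/S network and 16 E2F targets. The regulators lie to the left of 0, from -0.81 for MYB to -0.29 for CCNE2, and above 0 on the vertical axis, whereas CDC25B, CCNA2, FOXM1 and CKS1B lie high with pomalidomide differences between -0.25 and 0.07.

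The 6 genes were also compared by how their levels ran together over the 24 arrays, as a description. The points share the treatment groups, so correlations were also taken within groups, after the group means were removed. E2F1 and MYBL2 correlated at r = 0.81 over the 24 arrays and 0.54 within groups, with or without Pomalidomide alone. CCNE1 and CDC25A correlated at 0.76 and 0.79, and at 0.64 within groups over the 21 arrays without Pomalidomide alone. MYBL2 and MYB correlated at 0.79 over the arrays but 0.11 within groups, and 0.07 without Pomalidomide alone, so that their likeness lay in the group means. CDC25A and MYB correlated at 0.65 over the arrays but -0.16 within groups, and -0.56 without Pomalidomide alone. Their positive correlation was thus not seen within groups, where the value depended on the Pomalidomide arrays. E2F1 and CCNE1 correlated at 0.43 over the arrays and -0.15 within groups. Without Pomalidomide alone, where the lowest array was replicate 1 for E2F1 and replicate 3 for CCNE1, the latter was 0.28.

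The genes most like each member over the 24 arrays were taken as the 3 with the highest correlation among all genes tested. For MYBL2 they were UHRF1 at r = 0.91, CDCA5 at 0.91 and CENPM at 0.90, which act in DNA methylation upkeep, sister chromatid cohesion and the centromere. For MYB they were DTL at 0.88, ANKS6 at 0.88 and WDR76 at 0.86. CDC25A ran with HASPIN, a mitotic histone kinase, at 0.92, GEMIN4 at 0.87 and RRM2 at 0.87. CCNE1 ran with DONSON, a replication fork factor, at 0.90, RRM2 at 0.87 and GXYLT1 at 0.86. Over the 24 arrays the likeness was weaker for CCNE2, with the spindle checkpoint gene KNTC1 at 0.79, TRIM37 at 0.76 and EIF1AD at 0.76. Within groups it was not weaker throughout. There the 3 genes of CCNE2 stood at 0.82, 0.80 and 0.72, those of MYBL2 at 0.71, 0.72 and 0.72, and those of CCNE1 at 0.83, 0.78 and 0.82. For E2F1 the 3 were TRAP1, a mitochondrial chaperone, at 0.90, NUDT8 at 0.90 and GRK6 at 0.88.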

How the data were processed

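The deposited values are on the log2 scale, 1 per probe set and array. The submitters' processing notes name RMA and Affymetrix Expression Console as the authors' tools, with versions not given in the sources used here. Because RMA makes arrays alike in distribution, a shift common to most genes is hidden. Medians of the 24 arrays lay between 3.65 and 3.73. The probe table gave 1 symbol for 16098 of 53617 probe sets, and the 779 genes with several were read from the one with the highest mean. Genomic positions were not used here. The organism in the labels is the mouse host, but the probe sets are of human genes.

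A mean per group was fitted to the 24 arrays with limma 3.58.1 in R 4.3.3, leaving 16 residual degrees of freedom. P-values were two-sided, with Benjamini-Hochberg adjustment over 14884 genes in each comparison and a threshold of 0.05. The script was tested on simulated data. Precision is limited by the number of arrays, with a median SE of 0.14 between 2 groups and 0.07 for an average effect. Replicate numbers did not pair arrays, so they were not used as a block. Members, lists and tests were chosen with earlier results of these data known. Named were the 6 members, up to 4 listed genes with the smallest p per average effect, TFDP1, CDK2, RB1, MYBL1, the other E2F genes and the 3 genes most like each member. CDC6, RRM2, MCM6, the markers and the network genes named by role were chosen after their values were seen. Alternatives covered scaling, dim genes, array weights, the variance prior, the probe sets tested, the fit to the groups compared and omission of arrays.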

Additional observations from a re-analysis of the deposited data

How the results depend on the processing

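The 5 pomalidomide calls among members kept their direction and significance under every alternative run, with 2 exceptions. E2F1 did not pass without the background of Pomalidomide alone, chosen after seeing the data, which left 4. MYB and the uncalled CCNE2, both under a mean log2 of 5, left the test when dim genes were omitted, which left 4 of 4. The filanesib count of 1 was 0 with every probe set tested, and between 0 and 1 with single arrays omitted. The dexamethasone count was 0 throughout. With a replicate block the counts of members were 5, 1 and 0, and 670, 175 and 0 of all genes passed for pomalidomide, filanesib and dexamethasone, against 723, 208 and 2. Same-numbered arrays deviated together little, with a median correlation of -0.024 over 84 pairs, 17 of them over 0.1, and 5 of 24 arrays correlated best with their own number. The block also ended the MYBL2 call of Pomalidomide-Dexamethasone against Control, at an adjusted p of 0.0586. Array weights gave 1210 and 330 genes for pomalidomide and filanesib, and every probe set 1103 and 128. Dexamethasone passed 6 genes under array weights and 5 without the background of Pomalidomide alone. A further quantile normalisation moved the filanesib calls from 186 higher and 22 lower to 153 and 43. Signs that never passed also turned: CCNE1 with filanesib in 3 alternatives, and E2F1 and MYBL2 with dexamethasone in 1 each.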
